A study of Mus musculus with 8 samples.

Results

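The chromatin regions bound by NanogBiD and by Nr5a2BiD were compared in MEFs (mouse embryonic fibroblasts) at day 3 of reprogramming. BiD is the BRG1-interacting domain of SS18, which the study fused to the N-terminus of each factor. The members are the peaks of the libraries titled NanogBiD and Nr5a2BiD, 151986 of the 661009 peaks in the 8 lists of the series. NanogBiD had 75769 peaks and Nr5a2BiD had 76217. Peaks that overlapped by at least 1 bp were merged into 128297 regions, of which 22900 were shared, 52593 were found in NanogBiD only and 52804 in Nr5a2BiD only. The ranking within a list is by the deposited peak score, which is 10 times the negative log10 of the peak caller's p-value, and the 20000 highest-scoring peaks of each list were also compared.

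The series mapped 4 factors, Nanog, Nr5a2, Oct4 and Sox2, each as the native and as the BiD fused form, by CUT&Tag with an antibody against the Flag tag that the delivered factors carry. In CUT&Tag the antibody brings the transposase Tn5 to chromatin, so that DNA near the bound factor is cut, tagged and sequenced. Each of the 8 groups holds 1 library from MEFs at day 3. The native Nanog and native Nr5a2 libraries serve here as separate libraries that the classes were not made from. Per the study's methods, MEFs carried an Oct4-GFP reporter (OG2) and received factors by retroviral infection. The factors are thus expressed from a vector in cells that do not normally use them, and the labels name no factor delivered together with NanogBiD or Nr5a2BiD. In the paper, the name of the fused Nanog condition stands for fused Nanog together with native Oct4. The study's reporting summary states that CUT&Tag was carried out once without biological replicates, while its methods speak of merging replicates. There is no replicate here for any value, no test between the libraries was possible, and all intervals below cover counting error over peaks or regions in these libraries only.

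Nanog is a homeodomain transcription factor of the pluripotent state. NR5A2, also called LRH-1, is an orphan nuclear receptor that binds DNA as a monomer and is known for control of bile acid, cholesterol and steroid genes and, in early embryos and pluripotent cells, of Oct4. BRG1 is the ATPase of the BAF (SWI/SNF) complex, which moves nucleosomes, and fibroblast enhancers are known for sites of AP-1, TEAD and RUNX factors.

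Sequences at summits, the positions of highest signal in each peak, are shown first because the classes differed in the motifs they held. All are the + strand of GRCm38 (mm10), 5′ to 3′. Capitals mark only matches of the motif or motifs that each window is shown for. Matches of other searched motifs stay in lower case. The windows are 50 bp to either side of the summit in single-library regions. For each motif they are the highest-ranked regions of the class with a match in that window. The NanogBiD only regions with a GCCATTA match (NANOG motif) lay 1235 kb upstream of Slc10a2, a bile acid transporter gene, at rank 37, and in an intron of Dner at rank 46. The region nearest Nr2f1, at rank 18, held AACCACA (RUNX motif) on each strand.
NanogBiD only region nearest Slc10a2, chr8:6340473-6340573: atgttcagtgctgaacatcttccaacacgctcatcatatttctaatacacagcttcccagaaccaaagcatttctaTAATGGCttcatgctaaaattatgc
NanogBiD only region in Dner, chr1:84549815-84549915: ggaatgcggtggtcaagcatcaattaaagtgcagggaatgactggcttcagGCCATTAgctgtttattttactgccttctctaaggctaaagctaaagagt
NanogBiD only region nearest Nr2f1, chr13:79443308-79443408: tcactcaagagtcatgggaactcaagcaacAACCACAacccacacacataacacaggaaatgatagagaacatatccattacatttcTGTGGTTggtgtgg

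The NR5A motif was searched as TCAAGGTCA, TCAAGGCCA, CCAAGGTCA and CCAAGGCCA, on both strands. The match was centred at -27 bp from the Nr5a2BiD summit 166.7 kb upstream of Cited2, at 29 bp from the summit at the promoter of Bag6 and at -25 bp from the summit in an intron of Alms1. These peaks ranked 19, 88 and 121 in the Nr5a2BiD list.
Nr5a2BiD only region nearest Cited2, chr10:17556489-17556589: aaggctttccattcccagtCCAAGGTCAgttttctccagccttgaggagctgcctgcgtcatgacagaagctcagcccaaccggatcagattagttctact
Nr5a2BiD only region in Bag6, chr17:35142097-35142197: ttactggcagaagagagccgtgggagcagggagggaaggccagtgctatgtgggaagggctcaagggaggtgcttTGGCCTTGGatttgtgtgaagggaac
Nr5a2BiD only region in Alms1, chr6:85610700-85610800: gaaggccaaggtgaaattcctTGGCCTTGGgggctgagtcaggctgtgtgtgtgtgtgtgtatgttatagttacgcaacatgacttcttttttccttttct

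The shared regions are shown with an AP-1 motif, TGACTCA or TGAGTCA, and with a motif of each factor. In the region nearest Gm47985 a single AP-1 match lay at both summits, which were 1 bp apart. In the region 45.1 kb downstream of a Cd69 start site a NANOG match lay near the NanogBiD summit and an NR5A match near the Nr5a2BiD summit, 171 bp away. In the region in an intron of Adam22 the same motifs marked summits 137 bp apart. The last 2 windows run from 50 bp before the left summit to 50 bp after the right summit.
shared region nearest Gm47985, chr1:151172162-151172262: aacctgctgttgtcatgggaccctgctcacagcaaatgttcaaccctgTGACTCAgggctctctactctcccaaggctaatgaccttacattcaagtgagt
shared region nearest Cd69, chr6:129230175-129230446: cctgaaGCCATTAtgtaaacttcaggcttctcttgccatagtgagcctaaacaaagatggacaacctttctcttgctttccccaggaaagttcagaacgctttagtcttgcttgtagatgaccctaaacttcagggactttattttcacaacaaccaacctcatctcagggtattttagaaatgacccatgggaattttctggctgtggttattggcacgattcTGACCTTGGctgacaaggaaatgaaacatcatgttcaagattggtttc
shared region in Adam22, chr5:8293333-8293570: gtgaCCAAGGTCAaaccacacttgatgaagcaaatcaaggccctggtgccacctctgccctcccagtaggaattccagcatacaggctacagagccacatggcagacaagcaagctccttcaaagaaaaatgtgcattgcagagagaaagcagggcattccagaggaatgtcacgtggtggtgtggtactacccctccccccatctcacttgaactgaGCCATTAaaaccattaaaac

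NanogBiD and Nr5a2BiD had peak lists of nearly the same length but shared a minority of their peaks. Of the NanogBiD peaks, 30.6% (95% exact Clopper-Pearson interval 30.3 to 30.9%) overlapped an Nr5a2BiD peak, and of the Nr5a2BiD peaks, 30.7% (30.4 to 31.0%) overlapped a NanogBiD peak. The shared regions were 0.178 of all regions, the Jaccard index (0.176 to 0.181). Most shared regions, 96.7%, held 1 peak of each library. Among the 24 pairs of libraries of different factors, this index was the 8th from the top, and native Nanog and native Nr5a2 had an index of 0.153. The same-factor pairs were higher, with 0.552 for NanogBiD and native Nanog and 0.550 for Nr5a2BiD and native Nr5a2.

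The overlap was larger among strong peaks than among weak ones in each list. It fell from 50% of the 1000 highest-scoring NanogBiD peaks (46.9 to 53.1%) to 19.2% (18.6 to 19.9%) of those from rank 60001 on. In Nr5a2BiD it fell from 66% (63.0 to 68.9%) to 20.1% (19.5 to 20.7%). The 1000 strongest peaks of each list were nearly all found in the native library of their own factor, 99.8% for NanogBiD and 100% for Nr5a2BiD, while in the weakest band 39.96% and 65.6% were. Strong peaks missing from the other list were thus as a rule seen again in a separate library of the same factor. The native Nr5a2 list is the longer one, with 108030 peaks against 73465 of native Nanog, and the part of list length in these shares was not tested.

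**Figure D1:**
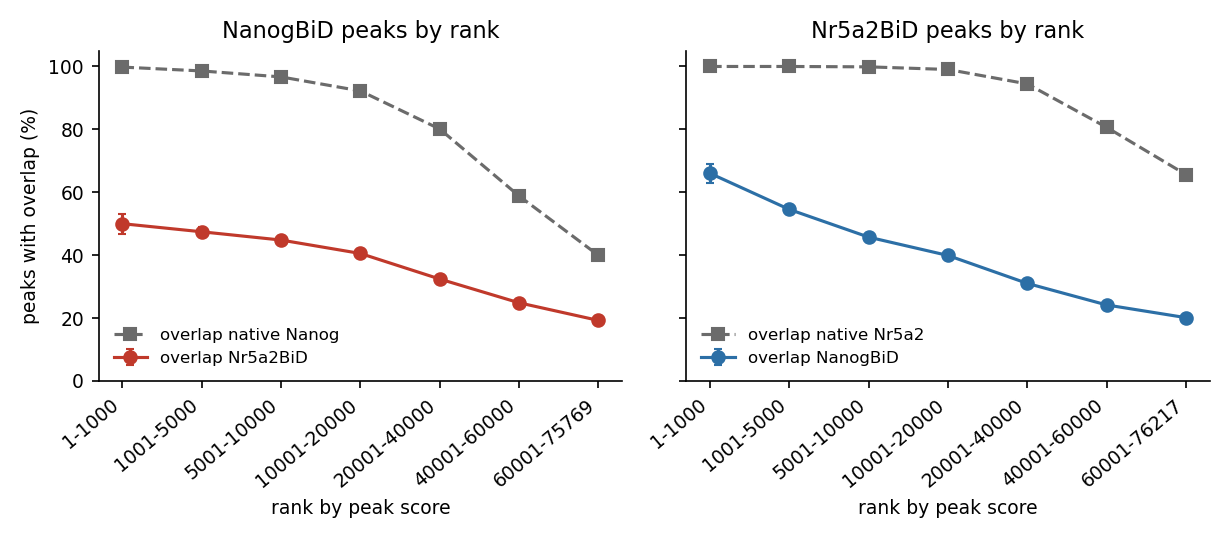
Share of NanogBiD peaks (left) and Nr5a2BiD peaks (right) that overlap a peak of the other fusion (circles, with 95% exact intervals) or of the native library of the same factor (squares), in bands of rank by peak score. Overlap with the other fusion falls from 50% to 19.2% in NanogBiD and from 66% to 20.1% in Nr5a2BiD.

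When only the 20000 highest-scoring peaks of each list were merged, 4466 regions were shared, 15534 were NanogBiD only and 15530 were Nr5a2BiD only, a Jaccard index of 0.126 (0.122 to 0.129). Part of these peaks ranked high in 1 list and low in the other. Of the 20000 NanogBiD peaks, 22.3% overlapped the top 20000 of Nr5a2BiD, 21.1% overlapped only weaker Nr5a2BiD peaks and 56.6% overlapped none. For Nr5a2BiD the shares were 22.4%, 23.2% and 54.4%. The score at rank 20000 was 244.26 in NanogBiD and 200.38 in Nr5a2BiD, and at rank 20001 it was 244.26 and 200.37. In shared regions the rank in NanogBiD and the rank in Nr5a2BiD had a Spearman correlation of 0.24 over 22900 regions, against 0.61 over 53834 pairs for NanogBiD and its native library and 0.65 over 66237 pairs for Nr5a2BiD and its native library. These are descriptions over sites that share their libraries and base composition.

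Sequencing depth is not in the lists. The lowest score called was 50 in each list. The median score was 138.01 in NanogBiD and 116.81 in Nr5a2BiD, the median summit height was 20 and 21 tags, and the median width was 913 and 838 bp. Peaks covered 83.1 Mb and 76.7 Mb. The study's reporting summary lists more read pairs for Nr5a2BiD than for NanogBiD, and the part of depth in the overlap was not tested.

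In the full lists, each of the 6 other libraries had a peak in a larger share of shared regions than of either single-library class. Shared regions were also wider, with a median of 1463 bp against 835 bp in NanogBiD only and 783 bp in Nr5a2BiD only regions. A wider region can overlap more peaks, and the part of width in this order was not tested. Each single-library class was covered most often by the native library of its own factor. Native Nanog had a peak in 85.7% of shared regions, in 63.4% (63.0 to 63.8%) of NanogBiD only regions and in 7.33% of Nr5a2BiD only regions. Native Nr5a2 had a peak in 89.2%, 9.43% and 84.9% (84.5 to 85.2%) of them. Both native libraries had a peak in 17480 shared regions, 76.3%. The order of the classes in the native lists followed the fused factor in each case.

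The Oct4 and Sox2 libraries overlapped NanogBiD only regions more often than Nr5a2BiD only regions. Sox2BiD, the longest list with 120594 peaks, had a peak in 67.6% of shared, 37.2% of NanogBiD only and 16.2% of Nr5a2BiD only regions. Oct4BiD had a peak in 58.6%, 25.4% and 10.92%. Of the shared regions, 4312 (18.8%) were present in all 6 other libraries. Of the Nr5a2BiD only regions, 62.8% were in exactly 1 other library and 10.5% in none, against 31.0% and 21.4% of the NanogBiD only regions. Regions found in a fusion library and nowhere else thus numbered 11250 for NanogBiD and 5524 for Nr5a2BiD. Native Nanog has the shorter list of the native libraries of these factors, and the part of list length in these numbers was not tested. Among the top 20000, native Nanog covered 93.7% of NanogBiD only regions and native Nr5a2 covered 99.5% of Nr5a2BiD only regions.

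**Figure D2:**
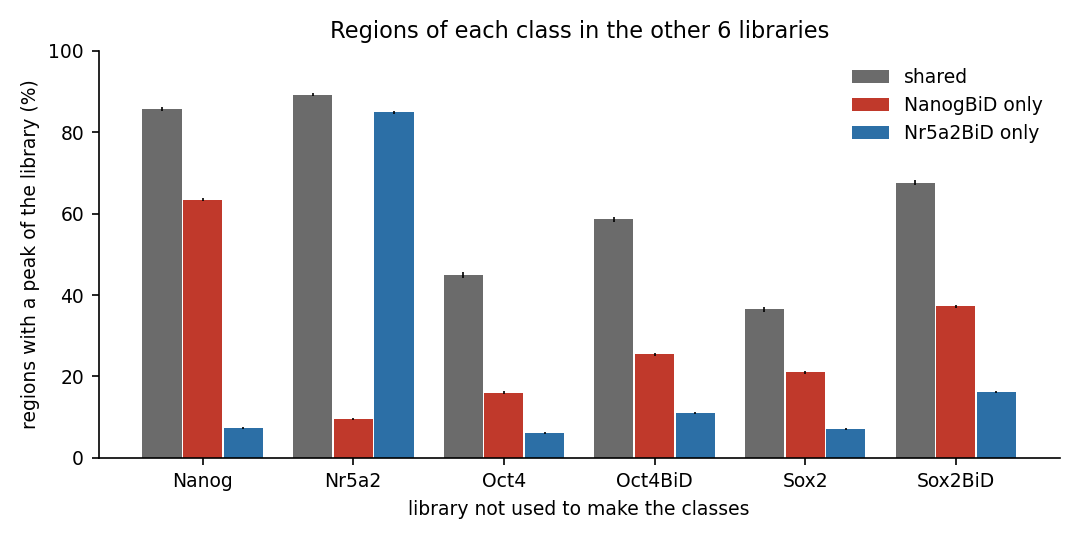
Share of shared, NanogBiD only and Nr5a2BiD only regions that hold a peak of each of the 6 libraries not used to make the classes, with 95% exact intervals as thin bars. Native Nanog covers 63.4% of NanogBiD only and 7.33% of Nr5a2BiD only regions, and native Nr5a2 covers 9.43% and 84.9%.

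The 8 strongest shared regions were present in all 8 libraries. The leading region, chr7:128671415-128673556 in an intron of Inpp5f, an inositol phosphatase gene, ranked 23 in NanogBiD with a summit height of 73 tags and 5 in Nr5a2BiD with 65 tags, and its summits were 377 bp apart. At Aph1b, a subunit gene of gamma-secretase, the summits were 43 bp apart, 0.203 kb upstream of a start site. At Amz2, a metallopeptidase gene, they were 157 bp apart on the UTR, 7 bp from a start site. The shared region 24.7 kb from Mier3 had summits 2 bp apart. The list also held Ppp2r3d, Mcc and Gm15217. The region at chr17:39842886-39848885, whose nearest gene is Esp38 at 104.5 kb, was 6000 bp wide with summits 2519 bp apart, the height being 79 tags in NanogBiD and 126 in Nr5a2BiD, the highest of the Nr5a2BiD list. How far repeated sequence rather than binding sets the signal of this region was not tested.

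The 8 strongest NanogBiD only regions all held a native Nanog peak and no native Nr5a2 peak, and all lay over 2 kb from a start site. The strongest was chr10:121836283-121838237 annotated as intron, 13.9 kb upstream of a Srgap1 start site, with a score of 1285.56, rank 4 and a height of 78 tags. Srgap1 encodes a GTPase-activating protein of the Slit and Robo pathway. Next were Sema3c, a secreted guidance factor gene, with 1169.59, and Scd3, a fatty acid desaturase gene, with 1160.03. The others were nearest to Nr2f1, Fat1, Klf6, Slc35f1 and St8sia2, 1243.6, 226.1, 612.6, 89.9 and 159.3 kb from the gene's start site. Srgap1 and Klf6 were also covered by all 4 Oct4 and Sox2 libraries, while Slc35f1 was in native Nanog alone.

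The 8 strongest Nr5a2BiD only regions all held a native Nr5a2 peak, and the first 7 held a peak of no other library. The strongest, chr1:136940244-136941128, lay on a coding exon of Nr5a2 itself, with a score of 1312.64, rank 2 and 83 tags. Kcnip4, a potassium channel partner gene, followed with a score of 1232.11 and 102 tags 0.6 kb upstream of a start site. Dpyd, the gene of the pyrimidine-degrading dehydrogenase, had 1108.7 in an intron. The others lay nearest to Fam3c, Map1b, Cited2, Trim36 and Erc2, of which Erc2 was also covered by both Sox2 libraries.

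The vectors carry coding sequence of the delivered factor, so its own gene was read first as a check of the labels. In Nanog, NanogBiD had 2 summits, both on coding exons, the higher with 47 tags, and Nr5a2BiD had 0. In Nr5a2, Nr5a2BiD had 10 summits, 4 of them on coding exons and the highest with 83 tags, and NanogBiD had 4 summits, 0 on coding exons and the highest with 20 tags. The coding-exon summits thus matched the library titles. How far they come from vector DNA rather than from binding was not tested, and this touches the strongest Nr5a2BiD only region above. The cell label was checked at 10 fibroblast marker genes, among them Col1a1, Col1a2, Vim and Thy1. A summit lay within 2 kb of a start site in both libraries at 8 of them, against 45.1% of all protein-coding genes, in NanogBiD alone at Pdgfrb and in Nr5a2BiD alone at Pdgfra. Peaks carry no expression level.

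Shared regions were concentrated at promoters, defined as a summit within 2 kb of a protein-coding start site. Promoters made up 38.3% of shared regions (37.6 to 38.9%), 9.81% of NanogBiD only regions (9.56 to 10.1%) and 10.1% of Nr5a2BiD only regions (9.86 to 10.4%). The median distance to the nearest start site was 7.89 kb, 27.9 kb and 22.6 kb. The single-library classes were thus nearly alike in promoter share, and Nr5a2BiD only regions lay somewhat closer to genes. Within the top 20000, the promoter shares were 58.0%, 13.8% and 17.9%, so that the single-library classes differed there.

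**Figure D3:**
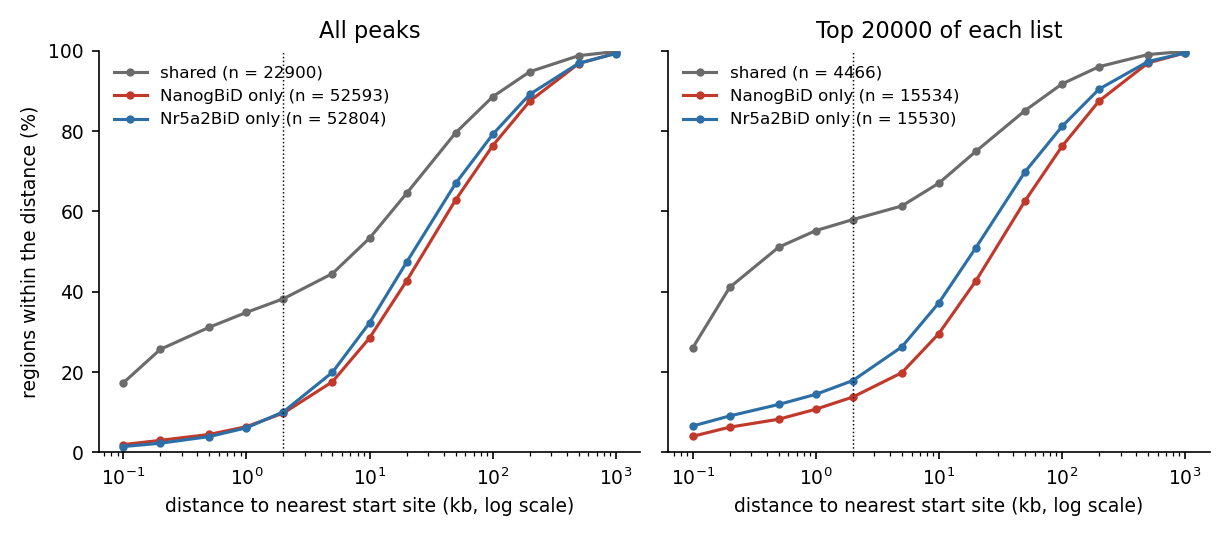
Cumulative share of regions whose summit lies within a given distance of the nearest start site (log scale, kb), for all peaks (left) and the top 20000 of each list (right), with the dotted line at 2 kb. At 2 kb the shared class stands at 38.3% on the left and 58.0% on the right, above both single-library classes.

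The share of peaks found in the other list was highest close to the start site and much lower beyond 2 kb. Of NanogBiD peaks within 250 bp of a start site, 78.4% were shared, against 42.9% from 250 bp to 2 kb. It was 26.3% from 2 to 10 kb, 25.1% from 10 to 50 kb and 19.4% beyond 50 kb. For Nr5a2BiD the shares in the same bands were 82.4%, 39.0%, 23.1%, 25.04% and 21.5%. The fall was thus not steady in Nr5a2BiD, where the share from 10 to 50 kb stood above that from 2 to 10 kb. CpG content moved with the share found in the other list. At promoters with over 5 CpG per 100 bp, 85.7% of NanogBiD and 90.7% of Nr5a2BiD peaks were shared. At those with fewer, 43.1% and 38.4% were. The few CpG-rich peaks beyond 2 kb, 470 and 489 in number, were shared at 71.9% and 75.3%. In 8356 shared promoter regions the median summit position relative to the start site was -54 bp in NanogBiD and -39 bp in Nr5a2BiD, both just upstream.

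The promoter share of shared regions also moved with the presence of the other factors. A peak of an Oct4 or Sox2 library lay in 81.2% of shared regions, 52.7% of NanogBiD only and 26.2% of Nr5a2BiD only regions. Among regions with such a peak the promoter shares were 44.4%, 11.7% and 11.1%, and among regions without, 11.9%, 7.76% and 9.77%. Shared regions free of Oct4 and Sox2 peaks, 4300 in number, thus had a promoter share close to that of the single-library classes. The part of CpG content and of the other factors' peaks in the promoter share of shared regions was not tested, and no control library is named that would give the signal of open promoters without a tagged factor.

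Motif content separated the NanogBiD only and Nr5a2BiD only regions by factor. The share of summits with a match within 50 bp, counting both strands, was set against that in flanking windows of 101 bp, centred 500 bp to the left and right. The NR5A motif was present in 9.43% of Nr5a2BiD only regions (9.18 to 9.68%), 7.64 times the flanks (7.18 to 8.12), and in 0.411% of NanogBiD only regions, 0.431 times the flanks (0.372 to 0.499). Over all 661009 summits of the series its share was 3.09%. NanogBiD only regions thus held fewer NR5A matches at their summits than in their own flanks. The class leaves out regions with an Nr5a2BiD peak, while the flanks can reach beyond the region. The low share at these summits is therefore partly set by the class rule, and how far was not tested. The Cited2, Bag6 and Alms1 sequences above are examples of Nr5a2BiD only regions with an NR5A match.

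The NANOG motif, GCCATTA, showed the opposite order with smaller values. It was present in 2.94% of NanogBiD only regions, 3.45 times the flanks (3.17 to 3.74), and in 0.820% of Nr5a2BiD only regions, 0.9496 times the flanks (0.847 to 1.06). Its share over all summits was 1.20%. The RUNX motif, AACCACA, followed the same order: 9.10% and 3.93 times the flanks (3.75 to 4.13) in NanogBiD only regions, against 2.88% and 1.20 times (1.13 to 1.28) in Nr5a2BiD only regions, and 4.43% over all summits. RUNX matches were thus more common than NANOG matches in NanogBiD only regions, as in the region nearest Nr2f1 printed above. AACCACA was also more common in the flanks of these regions, at 2.31% against 0.854% for GCCATTA.

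In shared regions each motif was met at the summit of its own factor. NR5A matches lay at 4.43% of Nr5a2BiD summits, 3.92 times the flanks (3.53 to 4.36), and at 1.24% of NanogBiD summits, 0.841 times (0.733 to 0.967). NANOG matches lay at 1.69% of NanogBiD summits, 2.44 times the flanks (2.10 to 2.83), and at 0.825% of Nr5a2BiD summits, 1.01 times (0.849 to 1.20). The shares were lower than in the single-library classes for each factor.

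Motifs of fibroblast enhancers were found in all classes. AP-1 was present in 8.54% of NanogBiD only, 7.49% of Nr5a2BiD only and 8.94% of shared regions at the NanogBiD summit, 5.39, 4.39 and 5.15 times the flanks, and its share over all summits was 7.31%. At shared regions over 2 kb from a start site it reached 12.5% of NanogBiD summits, 6.07 times the flanks, and 11.8% of Nr5a2BiD summits. TEAD, searched as CATTCCA and CATTCCT, was present in 10.1% of NanogBiD only and 6.90% of Nr5a2BiD only regions, 2.76 and 1.83 times the flanks, with 7.58% over all summits. AP-1 thus differed little between the classes, and TEAD stood higher in NanogBiD only regions.

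Promoter motifs were more common at shared promoters than at single-library promoters. At shared promoters the SP and KLF motif, GGGCGG, was present at 32.1% of NanogBiD and 34.6% of Nr5a2BiD summits, 2.88 and 3.15 times the flanks, and the ETS motif, CCGGAAGT, at 2.33% and 2.62%, 7.29 and 7.30 times. Over all summits, at promoters or not, these shares were 5.04% and 0.316%. At NanogBiD only and Nr5a2BiD only promoters SP and KLF stood at 9.01% and 6.78%, 1.82 and 1.80 times the flanks. ETS stood there at 0.814% and 0.281%, 4 and 1.88 times the flanks. At shared regions over 2 kb from a start site, SP and KLF was present at 3.53% of NanogBiD summits. The octamer ATGCAAAT, bound by Oct4, was present in 0.719% of NanogBiD only and 0.761% of Nr5a2BiD only regions, 1.11 times the flanks (0.975 to 1.25) and 1.35 times (1.19 to 1.53), against 2.21% over all summits. SOX, searched as CCATTGTT, was present in 0.453% and 0.295%, against 0.993% over all summits. CTCF, searched by its usual consensus, was present in 0.175% and 0.305%, 4 and 4.67 times the flanks, against 0.296% over all summits. A match is a description of the letters in the window, and no match says only that these letters are not there.

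**Figure D4:**
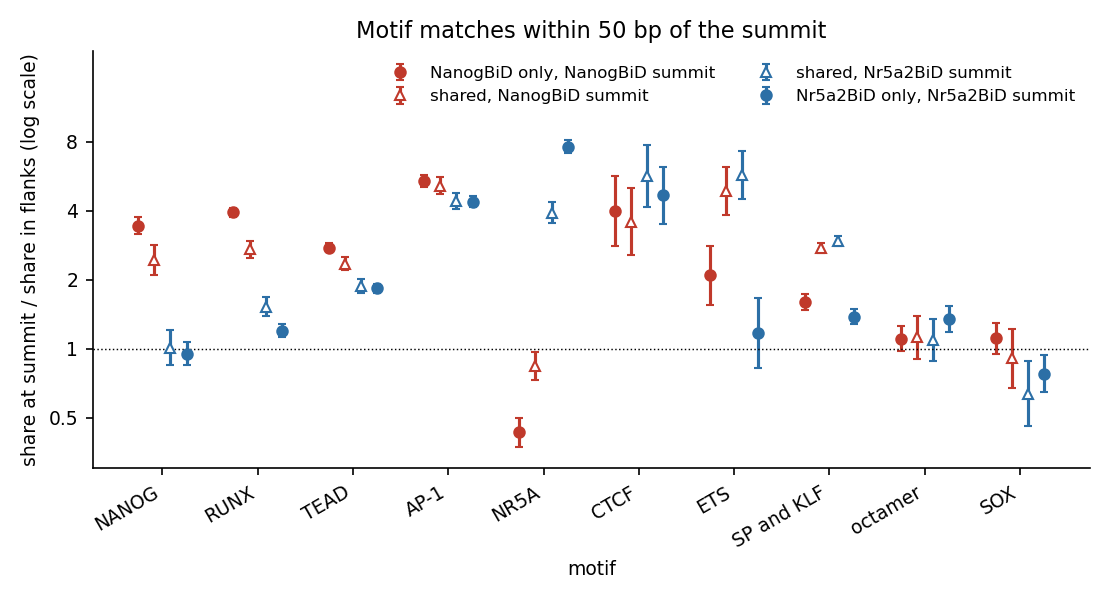
Share of summits with a motif match within 50 bp divided by the share in flanking windows (log scale), with 95% intervals from match counts, for single-library regions (filled circles) and for each factor's summit in shared regions (open triangles). NR5A stands at 7.64 in Nr5a2BiD only and at 0.431 in NanogBiD only regions, and NANOG and RUNX stand at 3.45 and 3.93 in NanogBiD only regions.

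In the shared regions the NanogBiD and Nr5a2BiD summits lay apart by a median of 112 bp (110 to 115), and 47.1% were within 100 bp. This spacing exceeded that between libraries of the same factor. In the 17480 shared regions with peaks of both native libraries, the median was 107 bp between the fusions, 54 bp between NanogBiD and native Nanog and 43 bp between Nr5a2BiD and native Nr5a2. Between native Nanog and native Nr5a2 it was 137 bp. The cross pairs were 139 bp for NanogBiD and native Nr5a2 and 103 bp for Nr5a2BiD and native Nanog. Every pair of different factors was thus farther apart than either pair of the same factor. At promoters the fusions were 87 bp apart and elsewhere 129 bp.

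The spacing varied with the motif at the summit. Where an NR5A match lay at the Nr5a2BiD summit, in 1015 regions, the NanogBiD summit was a median of 268 bp away (239 to 313). Where it lay at the NanogBiD summit, in 284 regions, the median was 44 bp (33 to 55). A NANOG match at the NanogBiD summit, in 386 regions, went with 185 bp (137 to 238), and at the Nr5a2BiD summit, in 189 regions, with 56 bp (47 to 81). A motif at the summit of its own factor thus went with wide spacing, and a motif at the summit of the other factor with close summits. AP-1 matches went with 74.5 bp at the NanogBiD and 71 bp at the Nr5a2BiD summit, as in the region nearest Gm47985.

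Region width moved with these values. The 1015 regions with an NR5A match at the Nr5a2BiD summit had a median width of 1604 bp against 1463 bp over all shared regions. In regions of at most 1463 bp, their spacing was 125 bp against 81 bp over all such shared regions, and NANOG at the NanogBiD summit gave 93 bp. In the same motif groups the distance to the native summit of the same factor stayed short, 25 bp from Nr5a2BiD to native Nr5a2 with NR5A at the Nr5a2BiD summit and 46 bp from NanogBiD to native Nanog with NANOG at the NanogBiD summit. Regions with a match of each factor at its own summit numbered 23, with a median spacing of 278 bp, and the Cd69 and Adam22 regions are among them.

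When motifs were searched around both summits, NR5A and NANOG matches were nearer to the summit of their own factor. Of 1180 shared regions with an NR5A match within 250 bp of either summit, 67.9% (65.1 to 70.5%) had it closer to the Nr5a2BiD summit. Of 658 with a NANOG match, 37.4% (33.7 to 41.2%) had it closer to the Nr5a2BiD summit. For AP-1 the share was 48.3% of 4102 (46.8 to 49.9%). AP-1 matches were thus almost evenly placed between the summits. Of the other motifs of neither factor, CTCF leaned to the Nr5a2BiD summit and TEAD slightly to the NanogBiD summit. CTCF matches were closer to the Nr5a2BiD summit in 59.4% of 424 regions (54.6 to 64.1%), and TEAD matches in 46.7% of 4167 (45.2 to 48.2%). Octamer and SOX matches did not lean clearly, with 51.2% of 391 (46.1 to 56.2%) and 48.6% of 210 (41.6 to 55.5%). Regions with a match equally far from both summits stay in these totals.

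**Figure D5:**
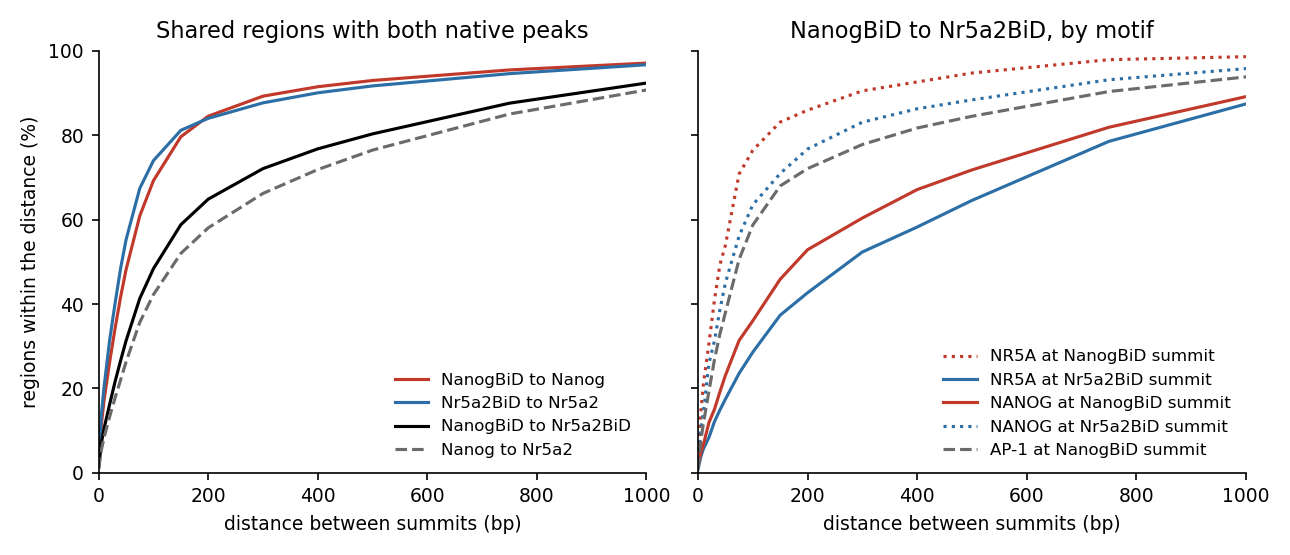
Cumulative share of shared regions by distance between summits (bp), for library pairs in the 17480 regions with both native peaks (left) and for NanogBiD to Nr5a2BiD by the motif found within 50 bp of a summit (right). Same-factor pairs reach their median at 54 and 43 bp and the fusions at 107 bp, and NR5A at the Nr5a2BiD summit has a median of 268 bp against 44 bp at the NanogBiD summit.

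Most single-library regions lay over 500 bp from any called peak of the other list. The median gap from a NanogBiD only region to the nearest Nr5a2BiD peak was 8.25 kb, and from an Nr5a2BiD only region to the nearest NanogBiD peak 8.24 kb. Only 4.65% and 4.56% lay within 500 bp of a peak of the other library. These gaps concern called peaks, and signal of the other factor below the calling limit was not tested.

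At the level of genes, most promoters with a peak in the full lists had a summit of both fusions, while in the top 20000 fewer had a summit of both than of 1 library alone. Of 21951 protein-coding genes, 9890 (45.1%) had a summit of both libraries within 2 kb of a start site, 2074 (9.45%) of NanogBiD alone, 1947 (8.87%) of Nr5a2BiD alone and 8040 (36.6%) of neither. In the top 20000 the numbers were 3255 (14.8%), 1880 (8.56%) and 2510 (11.4%). A gene with 1 library alone there can have a weaker summit of the other library. The native libraries separated the single-library promoters. Native Nanog had a promoter summit at 70.7% of the genes with NanogBiD alone and at 16.9% of those with Nr5a2BiD alone, and native Nr5a2, the longer list, at 50.1% and 94.0%.

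The strongest promoter regions of Nr5a2BiD only included textbook NR5A target genes. Apart from the exon of Nr5a2 and from Kcnip4, the 8 regions with the highest score were at Bag6 (897.31), Rcbtb2 (889.48), Nr0b2 (859.1), Rundc3b (833.46), Aloxe3 (779.78) and Fdx1 (770.67). Nr0b2 encodes SHP, a corepressor receptor of bile acid control whose gene is known to be bound by NR5A2. Its peak, chr4:133552216-133554955, had 84 tags, stood 0.242 kb upstream of a start site and was found in no library but the Nr5a2 ones. Fdx1, the gene of the ferredoxin that feeds electrons to steroidogenic enzymes, had a peak 0.758 kb upstream with 89 tags, also found in both Oct4 libraries and Sox2BiD. The Fdx1 gene counted as having a promoter summit of both libraries, as a NanogBiD peak lay at another place within 2 kb of a start site.

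The strongest promoter regions of NanogBiD only included those at Tom1l1 (984.1), Qtrt2 (932.81), Dnm3 (893.43), Map3k7cl (853.48), Etl4 (826.71), Krtap1-5 (813.22) and Epha5 (796.45). Each of these held a native Nanog peak. Dnm3, a dynamin gene, was covered by every library except Nr5a2BiD, and Tom1l1 by 2 libraries besides NanogBiD.

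Each region was next assigned to the nearest protein-coding start site within 100 kb, and the single-library regions of each gene were counted. A long gene can collect more regions. At least 5 more NanogBiD only than Nr5a2BiD only regions were found at 840 genes (3.83%), and the reverse at 715 (3.26%). Pde4d, a cAMP phosphodiesterase gene at chr13:108449948-109953461 that spans 1504 kb, had 90 NanogBiD only, 30 Nr5a2BiD only and 18 shared regions. Auts2 had 52, 10 and 7 of these, and Cdk14, a cyclin-dependent kinase gene, 40, 11 and 6. Mecom, a zinc finger transcription factor gene, had 38, 9 and 5. Dlg2, Bach2, Etl4 and Lhfp completed the 8 genes with the largest excess, with 33, 28, 35 and 26 NanogBiD only against 9, 6, 13 and 4 Nr5a2BiD only regions. At Bach2, which encodes a bZIP repressor of AP-1 type sites, 10 further regions were shared.

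On the Nr5a2BiD side, Shank2, a synaptic scaffold gene at chr7:144001928-144424494, had 5 NanogBiD only and 33 Nr5a2BiD only regions. Kalrn, a guanine nucleotide exchange factor gene, had 19 and 42. Dpf3, which encodes a BAF subunit, had 0 and 21 with 1 shared region. Nav2, Cdh4, Cntnap2 and Hivep3 had 17, 1, 3 and 4 NanogBiD only against 37, 20, 22 and 23 Nr5a2BiD only regions. Dpf3 spans 274 kb, and native Nr5a2 had 32 summits assigned to it while native Nanog had 2.

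A list of 11 genes was taken from the study's text, which names them as targets or helpers of NanogBiD or as somatic genes, and it does not hold every gene named there. Of the 11, 4 had a promoter summit of both, namely Klf4, Sox15, Dab2 and Thbd (36.4% against 45.1% of all genes), and 7 of neither (63.6% against 36.6%). Klf4, a reprogramming factor gene, had 8 NanogBiD only, 7 Nr5a2BiD only and 3 shared regions. Esrrb, an orphan receptor gene of naive pluripotency, had 7, 6 and 3. The pluripotency factor genes Sox2 and Sall4 had 2 and 1 NanogBiD only against 5 and 2 Nr5a2BiD only regions and 0 shared.

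The remaining named genes had few regions. Foxb1 and Olig3, neural transcription factor genes, each had 1 NanogBiD only and 5 Nr5a2BiD only regions. Dppa5a and Sox15 each had 1 NanogBiD only and 0 Nr5a2BiD only regions. A region is assigned to a single gene, so the promoter peaks at Sox15 that belong to a neighbour's start site are not in its count. Dab2, an endocytic adaptor gene, had 9, 4 and 3 regions, and Thbd, the thrombomodulin gene, 0, 0 and 1. Within 100 kb of the start of Mir302a, a microRNA gene of pluripotent cells, there were 0 NanogBiD only, 7 Nr5a2BiD only and 1 shared regions. At the factors' own genes, Nanog had 5, 2 and 0 regions with no promoter summit, and Nr5a2 had 3, 11 and 1 with a promoter summit of Nr5a2BiD alone.

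Among 36 pluripotency genes, 6 had a promoter summit of both libraries, 7 of NanogBiD alone, 4 of Nr5a2BiD alone and 19 of neither, so that the share with both, 16.7%, lay under the 45.1% of all genes. NanogBiD had 75 and Nr5a2BiD 95 single-library regions at these genes, a NanogBiD share of 44.1% against 49.0% over all genes. The list includes both delivered factors. Nanog had 5 against 2 regions, and Nr5a2 had 3 against 11 and a promoter summit of Nr5a2BiD alone. How far their summits come from vector DNA was not tested. The median difference was 0, as over all genes. Jarid2, a Polycomb partner gene, had the most NanogBiD only regions, 16 against 10. Tfcp2l1, a factor gene of the naive state, had 0 against 7. Pou5f1, the gene of Oct4, Zfp42, Gdf3, Dppa4, Tcl1 and Zfp296 had no region of any class assigned.

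Sterol and steroid genes, the textbook targets of NR5A receptors, had more Nr5a2BiD only regions. Of 28, 13 had a promoter summit of both, 0 of NanogBiD alone, 8 of Nr5a2BiD alone (28.6% against 8.87% of all genes) and 7 of neither. The 8 were Abcg5 and Abcg8, the sterol exporter genes, Apoa1, Cyp11b1, Cyp17a1, Cyp19a1 (aromatase), Nr0b2 and Nr1h4, the bile acid receptor gene. Single-library regions numbered 50 of NanogBiD and 81 of Nr5a2BiD, and 17 genes had more of Nr5a2BiD against 6 with more of NanogBiD. The median difference per gene, NanogBiD only minus Nr5a2BiD only, was -1 region, against 0 over all genes. Scarb1, the HDL receptor gene, had 3 against 10 and Cyp7a1, the rate-limiting enzyme gene of bile acid synthesis, 1 against 4, while Abca1, a cholesterol exporter gene, had 11 against 9.

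The nuclear receptor genes, the family of Nr5a2, also had more Nr5a2BiD only regions in sum. Of 45, 27 had a promoter summit of both (60% against 45.1% of all genes), 2 of NanogBiD alone, namely Esr2 and Pparg (4.44% against 9.45%), 6 of Nr5a2BiD alone (13.3% against 8.87%) and 10 of neither (22.2% against 36.6%). Single-library regions numbered 138 of NanogBiD and 190 of Nr5a2BiD, a NanogBiD share of 42.1% against 49.0% over all genes, with a median difference of 0 as over all genes. The list includes Nr5a2 itself, with 3 against 11 regions and a promoter summit of Nr5a2BiD alone, and how far its summits come from vector DNA was not tested. Rora, an orphan receptor gene, had 14 against 25, Ppard 0 against 9 and Nr5a1, the closest relative of Nr5a2, 1 against 5. Nr3c2, the mineralocorticoid receptor gene, had 7 against 2.

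The genes of the SWI/SNF complex, which BiD contacts, had promoter summits of both libraries at 20 of 27 (74.1% against 45.1% of all genes), of NanogBiD alone at Bcl7a, Smarcd3 and Smarce1, of Nr5a2BiD alone at Brd7 and of neither at 3 (Actl6b, Phf10 and Smarcc2). Their single-library regions numbered 49 of NanogBiD and 90 of Nr5a2BiD, of which Dpf3 alone held 21. The NanogBiD share was 35.3% against 49.0% over all genes, and the median difference was -1 against 0. Arid1b, a BAF subunit gene, had 9 against 13, and Arid1a 2 against 8. Smarca4, the gene of BRG1, had 3 and 3, and Ss18, the source of BiD, 3 and 1. Pbrm1, a PBAF subunit gene, had 4 against 0.

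Fibroblast genes had more NanogBiD only regions. All 30 had a promoter summit, 22 of both (73.3% against 45.1% of all genes), 6 of NanogBiD alone (20% against 9.45%) and 2 of Nr5a2BiD alone (6.67% against 8.87%). The 6 were Acta2, Dcn, Lum, Pdgfrb, Prrx2 and S100a4. Single-library regions numbered 177 of NanogBiD and 119 of Nr5a2BiD, a NanogBiD share of 59.8% against 49.0% over all genes, and the median difference was 1 against 0. Col5a2, a fibrillar collagen gene, had 16 against 2, Col1a2 12 against 2 and Dcn, the matrix proteoglycan gene decorin, 9 against 1. Col5a1 went the other way with 6 against 16.

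Genes of the factors whose motifs marked both lists had a promoter summit of both in most cases. Of 14 AP-1 genes, 9 had a promoter summit of both (64.3% against 45.1% of all genes), 3 of NanogBiD alone, namely Batf, Junb and Maff (21.4% against 9.45%), 1 of Nr5a2BiD alone (Fosl1) and 1 of neither. Of the 17 TEAD and Hippo genes matched, 14 had both (82.4% against 45.1%), Ankrd1 and Ccn1 had NanogBiD alone and Tead2 had Nr5a2BiD alone. Tead1, the gene of a TEAD factor, had 14 regions of each single-library class and 11 shared, the most shared regions of these 2 lists, and the median difference was 0 in both lists.

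Epithelial genes, which turn on during the mesenchymal-to-epithelial change of reprogramming, were spread over the classes. Of 20, 6 had a promoter summit of both (30% against 45.1% of all genes), 4 of NanogBiD alone (20% against 9.45%), 5 of Nr5a2BiD alone (25% against 8.87%) and 5 of neither (25% against 36.6%), with a median difference of 0. Tjp1, a tight junction gene, had 9 NanogBiD only against 3 Nr5a2BiD only regions, Grhl2, an epithelial transcription factor gene, 8 against 7, and Cdh1, the gene of E-cadherin, 2 against 3. Cldn6 had no region of any class.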

How the data were processed

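Flag CUT&Tag was deposited as 1 peak list and 1 summit list per library. The labels' protocol names an in situ ChIP kit with 100000 cells, while the study's methods name a CUT&Tag kit and fewer cells. The submitters' processing notes and the study's methods name Trim Galore 0.6.4 for trimming, Bowtie2 2.4.5 for mapping to mm10, SAMtools 1.16.1 for discarding repetitive, poorly mapped and mitochondrial reads and MACS 1.4.2 for peak calling. No control library is named. The peak score deposited by the authors is the MACS p-value as a negative log10, times 10. The summit height deposited by the authors is a signal in whole tags, not scaled to depth, so scores and peak numbers move with sequencing depth. Discarding reads that map poorly can leave repeats and near-identical gene copies without peaks. It did not remove all of them, as some summits lay in mostly repeat-masked windows.

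Peaks were joined at 1 bp overlap, and the highest-scoring summit of each library stood for a region (for shared regions, distances to genes use the NanogBiD summit). Coordinates were checked against GRCm38 and read with GENCODE M21; no peak ran past a chromosome end. Promoters are within 2 kb of a protein-coding start site, and genes take regions within 100 kb. Motif, spacing and overlap code was tested on simulated data. Shares carry 95% Clopper-Pearson intervals, medians order-statistic intervals and motif ratios intervals from match counts. With 1 library a group no test was run. The top 20000 lists, other thresholds, overlaps, windows, motifs and regions without Oct4 or Sox2 peaks were tried as alternatives. Python 3.11.15, NumPy 2.4.6, pandas 2.3.3, SciPy 1.17.1 and Matplotlib 3.10.9 were used.

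Named by rule were the 8 highest-ranked regions of each class (shared regions by their lower rank), the 8 highest-ranked single-library promoters, the 8 genes with the largest excess of single-library regions, all members of a list of genes that the study names, the genes of both factors, and in each other list members with most regions of a class or none; genes behind a small count are named beside it. Some genes that these rules name are not reported here. The regions, gene lists and motifs were chosen with earlier results of these data known. Ctgf and Cyr61 of the TEAD and Hippo list are older symbols of Ccn2 and Ccn1, which are counted.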

Additional observations from a re-analysis of the deposited data

How the results depend on the processing

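The 12 results were recomputed under 74 alternatives, of which 12 left the value within its interval and 62 moved it beyond. A reversal was defined only for the motif ratios, as passing from above 1 to below, and 0 were found. The index, the shares and the spacing are positive by definition and could not reverse. The order of the single-library classes in promoter share, 9.81% of NanogBiD only against 10.1% of Nr5a2BiD only regions, was the other way round at a limit of 500 bp. No paired analysis was possible because each group holds 1 library and no result comes from a test. Leaving out a replicate was not possible for the same reason. In each list below the values follow the order of the report. In the top 20000 of each list the Jaccard index was 0.126, the shared share 22.3% of NanogBiD and 22.4% of Nr5a2BiD peaks, the promoter shares 58.0%, 13.8% and 17.9% (shared, NanogBiD only, Nr5a2BiD only), the spacing 89 bp, the NR5A ratio in Nr5a2BiD only regions 5.67, the AP-1 ratio in shared regions 4.04, and the native shares 93.7% (Nanog in NanogBiD only) and 99.5% (Nr5a2 in Nr5a2BiD only). With a score of at least 100 in both lists these were 0.163, 26.8% and 29.6%, 47.6%, 11.2% and 11.4%, 107 bp, 7.02, 4.61, and 79.4% and 95.8%. Without regions that hold an Oct4 or Sox2 peak, the index was 0.0631, the shared shares 14.8% and 10.005%, the promoter shares 11.9%, 7.76% and 9.77%, the spacing 149 bp, the NANOG ratio in NanogBiD only regions 4.23, the AP-1 ratio 6.36 and the native Nanog share 51.1%. With these regions removed, shared regions kept a promoter share just above both other classes. Where peaks up to 500 bp apart counted as shared, the index was 0.196, the shared shares 33.8% and 33.9% and the promoter shares 36.4%, 9.37% and 9.79%. Where most of the shorter peak, 50% or more, had to overlap, the index was 0.169 and the shared shares 29.2% and 29.2%. Where summits had to lie within 100 bp, they were 0.0777, 14.5% and 14.4%. A promoter limit of 500 bp gave promoter shares of 31.2%, 4.48% and 3.96%, a limit of 5 kb gave 44.5%, 17.6% and 19.96%, and start sites of genes of every type gave 42.9%, 14.4% and 14.9%. Shared regions with 1 peak of each library had a spacing of 109 bp. Motif windows of 25 bp to either side gave ratios of 7.13 for NR5A and 5.66 for AP-1, windows of 100 bp gave 5.50, 4.44 and 2.77 for NANOG, flanks 1 kb away gave 8.46 for NR5A, the core AAGGTCA gave 6.58, and GCCATTA or GCCATCA gave 2.54 for NANOG. The lists hold no depth, and how far depth sets the number of single-library regions was not tested.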

Other observations

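The regions differed in base composition and position. The median GC content within 250 bp of the summit was 49.5% in shared regions, 43.1% in NanogBiD only and 46.5% in Nr5a2BiD only regions. Summits on coding exons made up 1.93% of shared, 0.890% of NanogBiD only and 2.20% of Nr5a2BiD only regions, and summits on UTRs 9.39%, 2.15% and 2.57%. Chromosome 7 held 5.94% of shared, 4.58% of NanogBiD only and 5.95% of Nr5a2BiD only regions, and chromosome X held 2.01%, 2.69% and 1.99%. Windows that were mostly repeat-masked sequence made up 1.35%, 3.51% and 6.97%.

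Most ribosomal protein genes, which are used in every cell, had a promoter summit of both libraries. Of 45 cytosolic ribosomal protein genes, 38 had a promoter summit of both libraries (84.4% against 45.1% of all genes), 3 of NanogBiD alone (Rpl10a and Rps7 among them), 2 of Nr5a2BiD alone (Rpl24 and Rpl35) and 2 of neither (Rpl19 and Rpl8). Of 14 genes of endothelial, blood, neural and muscle cells, 2 had both (Csf1r and Pecam1, 14.3% against 45.1% of all genes), 2 NanogBiD alone (Elavl4 and Tek, 14.3% against 9.45%), 3 Nr5a2BiD alone (Cdh5, Ptprc and Tubb3, 21.4% against 8.87%) and 7 neither (50% against 36.6%). Their single-library regions numbered 35 of NanogBiD and 39 of Nr5a2BiD, a NanogBiD share of 47.3% near the 49.0% over all genes, and Myod1, the muscle regulator gene, had 0 and 1. The median difference per gene, NanogBiD only minus Nr5a2BiD only, was 0 for the ribosomal protein genes and -1.5 for these 14.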
